A study of Homo sapiens with 4 samples.

Results

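The keratin genes KRT8, KRT18, KRT19, KRT7, KRT80 and KRT10 were described across 4 prostate cancer libraries. They were picked by name, together with KRT5, KRT15 and TP63, so the rule named 9 genes, and 6 of these are among the 22637 genes of the table. KRT5, KRT15 and TP63 were not analysed here, and the basal side of the epithelium is therefore described through other marker genes. The 6 keratins comprise 3 type II chains, KRT7, KRT8 and KRT80, and 3 type I chains, KRT10, KRT18 and KRT19.

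RNA was sequenced from 4 established human prostate adenocarcinoma lines, with 1 library each. LNCaP is the castration-sensitive parental line and LN-OlapR its olaparib-resistant derivative, whereas C4-2B is the castration-resistant parental line, itself descended from LNCaP, and 2B-OlapR its olaparib-resistant derivative. Olaparib inhibits PARP enzymes, and both resistant lines had been selected by long culture in rising doses. Per the labels, all 4 lines were untreated, and no agent for selection was present while the cells were plated before RNA isolation. The paper states that the resistant lines were maintained in medium with olaparib. What that exposure left in the RNA was not tested. Each resistant line was measured in 1 library, so what distinguishes it from its parent as a line and what accompanies resistance cannot be told apart.

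Keratins form the intermediate filaments of epithelial cells, and every filament is assembled from a type I and a type II chain in equal amounts. KRT8 and KRT18 are the partner chains of simple epithelia and mark the luminal, secretory cells of the prostate. KRT5, KRT14, KRT15 and the transcription factor TP63 mark the basal layer, which is typically lost in prostate adenocarcinoma. Filaments are anchored at cell junctions by desmosomes and at other sites by plakin proteins.

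Levels are given as normalized CPM, counts of a gene relative to the effective library size, with 95% Wilson intervals in brackets. Library totals ranged from 19950537 to 26394267 counts. A level of 3 counts, taken as the limit of detection, corresponds to between 0.112 and 0.147 normalized CPM. Log2 ratios were computed with 0.5 counts added to each library and carry 95% intervals from the counts. All intervals cover counting error only, and with 1 library per line differences could not be checked in replicates, and p-values were not computed. A gene was compared where its mean over both libraries was at least 1 normalized CPM, and 2-fold is the size used to count genes as different.

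The labelled cell type was checked first. All 11 luminal prostate markers of this check, among them HOXB13 and FOLH1, were present in every library, at 53.1 to 2685 normalized CPM. KRT8 and KRT18 accounted for between 90.4% and 96.6% of the counts of the 11 keratin genes listed, which together took 0.0639% to 0.0849% of all counts. Among basal markers, KRT14 had only 3 counts in LNCaP against 13 in LN-OlapR, and 11 in C4-2B against 4 in 2B-OlapR. NGFR, a receptor of basal cells, was under 1 normalized CPM in every library, with 0.343 as its highest level. The libraries were thus luminal by these markers, but 2 other basal markers of the check, described below, were present. ITGB4 was above 3 counts in every library, at 16 to 125 counts, and CDH3 only in C4-2B and 2B-OlapR.

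**Figure D1:**
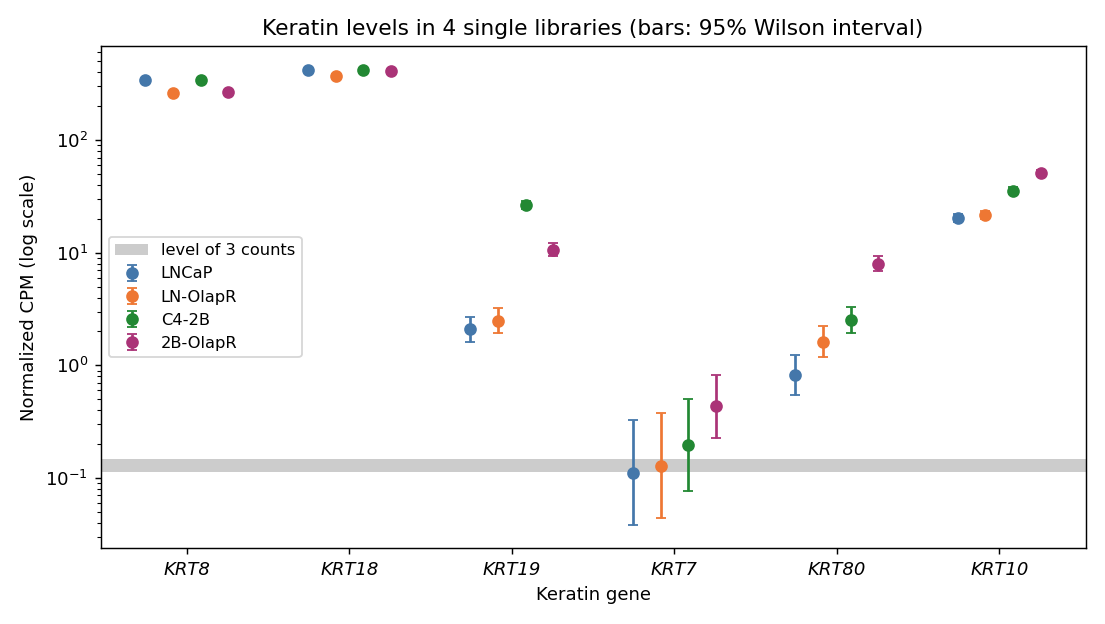
Normalized CPM of the 6 keratin genes (log axis) in LNCaP, LN-OlapR, C4-2B and 2B-OlapR, 1 library each; points are levels, bars 95% Wilson intervals and the grey band the level of 3 counts. KRT8 and KRT18 lie between 259.8 and 422 in all libraries, KRT19 spans 2.08 to 26.7, and KRT7 stays near the band.

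KRT8 was lower in both resistant lines than in the lines they came from. KRT8 (ENSG00000170421.13), the type II chain of simple epithelia, had 9138 counts in LNCaP against 6061 in LN-OlapR, and 7028 in C4-2B against 5560 in 2B-OlapR. These are 339.9 (333.0 to 347), 259.8 (253 to 266), 343 (336 to 352) and 268 (261 to 275) normalized CPM. Both parental lines were high and both resistant lines low, and no interval of one kind reached the other. The log2 ratio was -0.39 (-0.43 to -0.34) for LN-OlapR over LNCaP and -0.36 (-0.41 to -0.31) for 2B-OlapR over C4-2B. Counted from the lowest, KRT8 ranked 2774 of 15373 genes in the LN pair and 3601 of 15527 in the 2B pair, so many genes were lower by more. The ratio in the 2B pair minus that in the LN pair was 0.03 (-0.04 to 0.10). Between the parental lines the log2 ratio was 0.01 (-0.03 to 0.06). In bulk RNA, fewer cells with a transcript and less transcript per cell cannot be told apart.

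KRT18 moved less than its partner. KRT18 (ENSG00000111057.11), the type I chain that pairs with KRT8, had 11347 counts in LNCaP against 8737 in LN-OlapR, and 8538 in C4-2B against 8483 in 2B-OlapR, or 422 (414 to 429.9), 375 (367 to 382), 417 (408 to 426) and 409 (401 to 418) normalized CPM. LN-OlapR stood below the other lines, whose intervals overlap one another. Its log2 ratio over LNCaP was -0.17 (-0.21 to -0.13), whereas 2B-OlapR over C4-2B gave -0.03 (-0.07 to 0.02), an interval that includes 0. Scaling by total counts moved the LN value to -0.26.

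The balance of the partner chains was compared per transcript length, 1882 bases for KRT8 and 1562 for KRT18 in the GENCODE release 29 annotation. On this scale KRT8 amounted to 0.668 (0.650 to 0.687) of KRT18 in LNCaP and 0.683 (0.662 to 0.705) in C4-2B. In the resistant lines it was 0.576 (0.557 to 0.595) in LN-OlapR and 0.544 (0.526 to 0.563) in 2B-OlapR. The resistant libraries lay below both parental libraries with no overlap of intervals. The log2 change of the KRT8 to KRT18 ratio was -0.22 (-0.28 to -0.15) in the LN pair and, in the 2B pair, -0.33 (-0.40 to -0.26). It was 0.03 (-0.03 to 0.09) between the parental lines. This change does not depend on scaling between libraries, because both genes are read in the same library. Summed over the 3 type II and the 3 type I keratins per length, the type II to type I ratio was 0.643 in LNCaP against 0.550 in LN-OlapR, and 0.605 in C4-2B against 0.493 in 2B-OlapR.

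**Figure D2:**
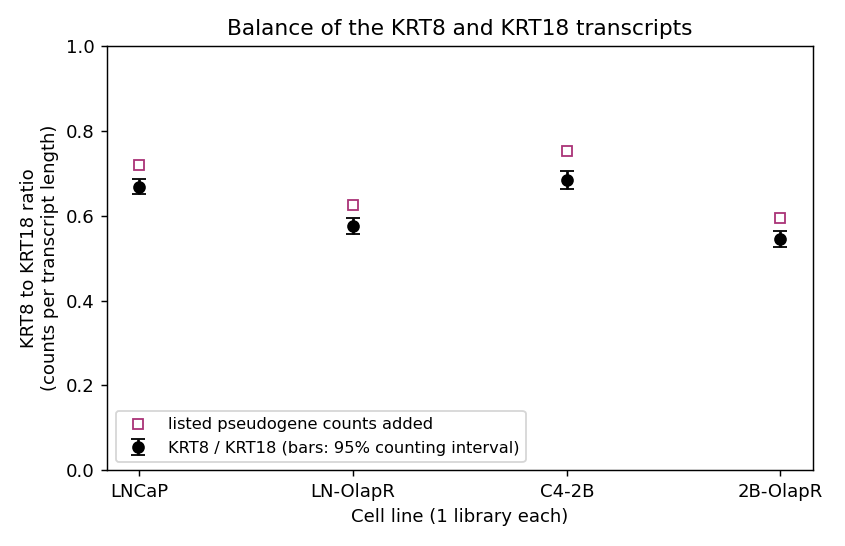
Ratio of KRT8 to KRT18 counts per transcript length (y axis, linear from 0) in each of the 4 libraries; filled points carry 95% counting intervals and open squares include the counts of the listed pseudogenes. The ratio is 0.668 and 0.683 in the parental lines and 0.576 and 0.544 in the resistant lines.

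Both genes share sequence with processed pseudogenes, and their deposited values lay more than 0.01 from a whole number in all 4 libraries. The table lists 19 pseudogenes of KRT8 and 24 of KRT18. The KRT8 pseudogenes held 1112 counts in LNCaP against 777 in LN-OlapR, and 1067 in C4-2B against 830 in 2B-OlapR, which is 10.8% to 13.2% of the counts of gene and pseudogenes together. For KRT18 the share was 3.78% to 4.86%. Of all 43 pseudogenes 11 were compared in the LN pair and 12 in the 2B pair, and 0 of them were 2-fold different. Over all genes, 4.64% passed 2-fold upward and 4.83% downward for LN-OlapR over LNCaP, and 4.42% and 5.65% for 2B-OlapR over C4-2B. The pseudogenes had median log2 ratios of -0.35 and -0.18 in the same order, against 0.00 for all genes. With the pseudogene counts added, the ratio per length was 0.720 in LNCaP and 0.752 in C4-2B against 0.625 in LN-OlapR and 0.595 in 2B-OlapR, so the resistant lines were again the lower of each pair. KRT8 and KRT18 are neighbours on chromosome 12 of GRCh38, KRT8 on the minus strand from 52897187 to 52949954 and KRT18 on the plus strand from 52948871 to 52952901. Their annotated bounds overlap by 1084 bases, and the strand setting of the counting is not given in the sources used here.

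KRT19 had the widest range over the lines among the 6 members. KRT19 (ENSG00000171345.13; chromosome 17, minus strand, 41523617 to 41528308) is a type I keratin of simple epithelia. It had 56 counts in LNCaP against 58 in LN-OlapR, and 546 in C4-2B against 220 in 2B-OlapR, or 2.08 (1.60 to 2.71), 2.49 (1.92 to 3.21), 26.7 (24.5 to 29.02) and 10.6 (9.30 to 12.1) normalized CPM. C4-2B was highest and 2B-OlapR second, while LNCaP and LN-OlapR were low and did not differ beyond counting error. KRT19 was 12.7-fold higher in C4-2B than in LNCaP, with a log2 ratio of 3.67 (3.27 to 4.06) that ranked 184 of 15580 genes. In 2B-OlapR it was 2.51-fold lower than in C4-2B, a log2 ratio of -1.33 (-1.55 to -1.10), at rank 552 of 15527 counted from the lowest. LN-OlapR over LNCaP gave 0.25 (-0.27 to 0.78), an interval that includes 0. The 2B ratio minus the LN ratio was -1.58 (-2.16 to -1.01). Its share of the summed level of the 6 keratins, per length, was 3.95% in C4-2B and 1.74% in 2B-OlapR, against 0.324% in LNCaP and 0.458% in LN-OlapR.

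KRT7 (ENSG00000135480.17; chromosome 12, plus strand, 52232520 to 52252186), a type II keratin of ductal and glandular epithelia, was low in every library. It had 3 counts in LNCaP against 3 in LN-OlapR, and 4 in C4-2B against 9 in 2B-OlapR, and its mean passed the minimum of 1 normalized CPM in no comparison. Its level in 2B-OlapR was 0.434 (0.229 to 0.826) normalized CPM, above the 3-count level of that library, whereas in the other lines it stood at or next to that level. The log2 ratio of 2B-OlapR over C4-2B was 1.06 (-0.56 to 2.68), which includes 0.

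KRT80 was higher in the resistant line of each pair, at low levels. KRT80 (ENSG00000167767.14; chromosome 12, minus strand, 52168996 to 52192000) is a type II keratin of differentiating epithelium. It had 22 counts in LNCaP against 38 in LN-OlapR, and 52 in C4-2B against 165 in 2B-OlapR, or 0.818 (0.540 to 1.24), 1.63 (1.19 to 2.24), 2.54 (1.94 to 3.33) and 7.96 (6.84 to 9.27) normalized CPM. 2B-OlapR stood above all other lines, and the intervals of LNCaP and LN-OlapR overlap narrowly, as do those of LN-OlapR and C4-2B. The log2 ratio was 0.98 (0.23 to 1.73) in the LN pair, just inside 2-fold, and 1.64 (1.19 to 2.09), or 3.11-fold, in the 2B pair. C4-2B exceeded LNCaP by 1.62 (0.90 to 2.33). The ratio of the 2B pair minus that of the LN pair was 0.66 (-0.22 to 1.53), an interval that includes 0.

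KRT10 was higher in the C4-2B lineage. KRT10 (ENSG00000186395.9; chromosome 17, minus strand, 40818117 to 40822595) is the type I keratin of the suprabasal layers of stratified epithelium. It had 549 counts in LNCaP against 507 in LN-OlapR, and 726 in C4-2B against 1062 in 2B-OlapR, or 20.4 (18.8 to 22.2), 21.7 (19.9 to 23.7), 35.5 (33.0 to 38.2) and 51.2 (48.3 to 54.4) normalized CPM. LNCaP and LN-OlapR were low with overlapping intervals, and 2B-OlapR was highest. The log2 ratio was 0.53 (0.39 to 0.67) in the 2B pair, 0.09 (-0.08 to 0.26) in the LN pair and 0.80 (0.64 to 0.96) for C4-2B over LNCaP. The 2B ratio minus the LN ratio was 0.44 (0.22 to 0.66).

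KRT10 is overlapped over 3490 bases by KRT10-AS1 on the opposite strand, whose reads cannot be told apart from those of KRT10 if the counting did not use strand. KRT10-AS1 had 633 counts in LNCaP against 587 in LN-OlapR, and 464 in C4-2B against 675 in 2B-OlapR. Its log2 ratio was 0.10 (-0.07 to 0.26) for LN-OlapR over LNCaP and 0.52 (0.35 to 0.69) for 2B-OlapR over C4-2B, close to the values of KRT10, but -0.05 (-0.23 to 0.12) for C4-2B over LNCaP. With both genes summed, C4-2B over LNCaP was 0.40 in place of 0.80, and 2B-OlapR over LN-OlapR was 0.84 in place of 1.24, under 2-fold.

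The sequence ahead of the start site is shown for KRT8 and KRT10, from RefSeq on GRCh38.p14. Each run holds the 250 bases before the start on the minus strand, at chr12:52926470-52926719 for KRT8 and chr17:40822615-40822864 for KRT10. GENCODE release 29 lists 17 transcript starts for KRT8, and the RefSeq start was not matched to them. Which start these cells used was not measured. Both strands were searched for the letters TATAAA of the TATA box, for TGACTCA and its reverse complement TGAGTCA of the AP-1 site, for GGGCGG of the GC box, and for the letters that name the CCAAT box. Capitals mark the matches, and no matches overlap.
KRT8: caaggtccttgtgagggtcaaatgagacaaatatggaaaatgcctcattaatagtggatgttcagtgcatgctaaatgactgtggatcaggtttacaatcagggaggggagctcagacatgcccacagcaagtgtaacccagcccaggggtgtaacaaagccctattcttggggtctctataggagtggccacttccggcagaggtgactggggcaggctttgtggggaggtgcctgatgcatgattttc
KRT10: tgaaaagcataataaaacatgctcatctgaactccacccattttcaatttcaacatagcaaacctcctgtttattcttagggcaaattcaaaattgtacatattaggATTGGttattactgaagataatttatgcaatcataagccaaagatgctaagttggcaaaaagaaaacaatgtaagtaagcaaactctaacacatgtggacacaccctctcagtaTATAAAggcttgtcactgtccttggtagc

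The KRT10 window held the TATA letters 29 to 24 bases before the start and the CCAAT letters, on the opposite strand, at 143 to 139 bases. Of 35116 windows of the same length, 10.7% held the TATA letters, 32.0% the CCAAT letters, 42.6% the GC box letters and 4.2% the AP-1 letters. The KRT8 window held none of these letters, which says nothing about other windows. Promoter entries were not used here for KRT7, KRT18, KRT19 and KRT80.

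The keratins that differed by 2-fold or more were counted beside all genes. In the LN pair 0 of the 5 keratins compared were 2-fold different, where 4.64% of 15373 genes were 2-fold or more higher and 4.83% lower. In the 2B pair KRT80 was 2-fold higher and KRT19 2-fold lower, where 4.42% of 15527 genes were higher and 5.65% lower. KRT19 and KRT80 were 2-fold higher in C4-2B than in LNCaP, where 8.00% of 15580 genes were higher and 7.18% lower. KRT19, KRT80 and KRT10 were 2-fold higher in 2B-OlapR than in LN-OlapR, with log2 ratios of 2.09 (1.67 to 2.50), 2.27 (1.77 to 2.78) and 1.24 (1.08 to 1.39), where 8.93% of 15539 genes were higher and 9.45% lower. These 4 comparisons share libraries, so their values are not independent of one another.

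**Figure D3:**
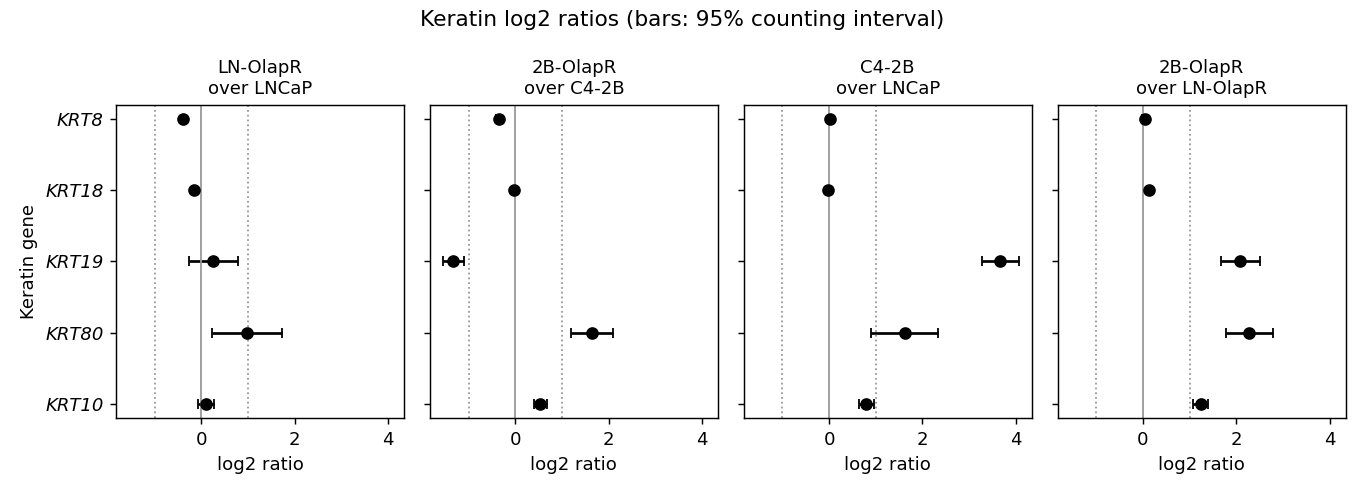
Log2 ratios (x axis) of the 5 keratins above the minimum level in the 4 comparisons, with 95% counting intervals; the solid line marks 0 and dotted lines 2-fold. KRT8 lies below 0 in both resistant lines, at -0.39 and -0.36, KRT80 lies above 0 in every panel, and KRT19 reaches 3.67 for C4-2B over LNCaP.

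Per length, KRT18 and KRT8 stood above the other members in every library. KRT18 ranked 224 to 286 and KRT8 353 to 568 among the 21395 genes with an annotated length, depending on the library. KRT10 ranked 6691 in LNCaP, 6365 in LN-OlapR and 3546 in 2B-OlapR, where it came next. In C4-2B KRT19 came next instead, at 4188 against 4655 for KRT10. KRT19 ranked 12727 in LNCaP, and KRT80 ranked 17831 in LNCaP and 11661 in 2B-OlapR.

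Of 26 type II and 29 type I keratins looked for, 7 and 4 were analysed here, and the 5 that the rule did not name were low. KRT6C, a type II keratin of stratified epithelium, had 39 counts in LNCaP against 85 in LN-OlapR, and 12 in C4-2B against 2 in 2B-OlapR. Its log2 ratio was 1.32 (0.77 to 1.86) in the LN pair and -4.93 (-6.74 to -3.11) for 2B-OlapR over LN-OlapR, but it has near-identical paralogs, so its values are uncertain. KRT81, a hair keratin, had 20 counts in LNCaP, 1 in LN-OlapR and 0 in both C4-2B and 2B-OlapR. KRT2 and KRT73, at 2 to 18 counts, stayed under 1 normalized CPM in every library, as did KRT14.

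For the 3 keratins with more than 3 counts in every library and a range of at least 2-fold, which leaves out KRT7, the genes with the most similar profile over the 4 libraries were taken from the 10136 genes averaging 10 normalized CPM or more. Likeness was the root mean square difference of centred log2 levels. For KRT19 these included IGF1 (0.122), which encodes a growth factor, and EFS (0.250), an adaptor protein. IGF1 had 6.55 normalized CPM in LNCaP against 8.96 in LN-OlapR, and 78.3 in C4-2B against 30.7 in 2B-OlapR. For KRT80 they were DERL3 (0.171), a protein of endoplasmic reticulum quality control, IRS1 (0.180), an adaptor of insulin signalling, and SHROOM3 (0.180), a regulator of epithelial cell shape. SHROOM3 had 138 normalized CPM in LNCaP and 935 in 2B-OlapR. For KRT10 they were SAPCD2 (0.019), SAP18 (0.027) and FAM53B (0.038). With 4 libraries many profiles are alike, and these are descriptions only.

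Several desmosomal genes had lower levels in 2B-OlapR than its parent. Desmosomes anchor keratin filaments at cell contacts, and plakins link the filaments to them. Of 27 genes of desmosomes, plakins and keratin-associated proteins, 22 were compared in the 2B pair, where 4 were lower by 2-fold or more and 1 was higher, beside 5.65% lower and 4.42% higher over all genes. The median log2 ratio was -0.15 against 0.00 for all genes, and 16 of the 22 lay below 0, a share not computed over all genes. Among these 16, the intervals of EVPL, FAM83H and YWHAH included 0. Of 23 compared in the LN pair, 0 were 2-fold different in either direction, with a median of 0.02 against 0.00, beside 4.64% higher and 4.83% lower over all genes. Between LNCaP and C4-2B 23 were compared, of which 1 was 2-fold higher and 2 lower in C4-2B, beside 8.00% and 7.18% of all genes.

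DSP, which encodes desmoplakin, the link between keratin and the desmosome, had 281 normalized CPM in LNCaP against 182 in LN-OlapR, and 272 in C4-2B against 88.8 in 2B-OlapR. Both resistant lines were below their parents, with log2 ratios of -0.63 (-0.68 to -0.57) and -1.62 (-1.69 to -1.54). DSG2, a desmosomal cadherin, had 342, 227, 199 and 75.9 normalized CPM in LNCaP, LN-OlapR, C4-2B and 2B-OlapR. It too was lower in both resistant lines, with log2 ratios of -0.59 (-0.64 to -0.54) in the LN pair and -1.39 (-1.48 to -1.31) in the 2B pair. DSC2, the other abundant desmosomal cadherin here, had 79.6, 63.7, 21.0 and 6.37 in the same order, and log2 ratios of -0.32 (-0.42 to -0.23) and -1.71 (-2.0 to -1.43). DSC1, with 37 counts in the parental and 5 in the resistant line, had -2.79 (-4.08 to -1.5) in the 2B pair. DST, a plakin, was the gene 2-fold higher there, at 27.8 normalized CPM in 2B-OlapR against 13.2 in C4-2B.

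Smaller differences lay in both directions, and the next 5 genes were chosen after their values were seen. PKP2, or plakophilin 2, had log2 ratios of -0.35 (-0.59 to -0.11) in the LN pair and -0.61 (-0.92 to -0.31) in the 2B pair. MACF1, a plakin, had -0.46 (-0.52 to -0.39) and -0.58 (-0.68 to -0.49), and PERP, a desmosomal membrane protein, had -0.37 (-0.44 to -0.30) and -0.22 (-0.30 to -0.13). These 3 were lower in both resistant lines, whereas JUP and PLEC, which encode plakoglobin and plectin, were slightly higher in both. JUP had log2 ratios of 0.17 (0.12 to 0.22) in the LN pair and 0.22 (0.18 to 0.26) in the 2B pair, and PLEC had 0.20 (0.16 to 0.25) and 0.22 (0.18 to 0.25). PPL, the plakin periplakin, had 8.63 normalized CPM in LNCaP and 9.22 in LN-OlapR against 34.6 in C4-2B and 34.9 in 2B-OlapR.

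**Figure D4:**
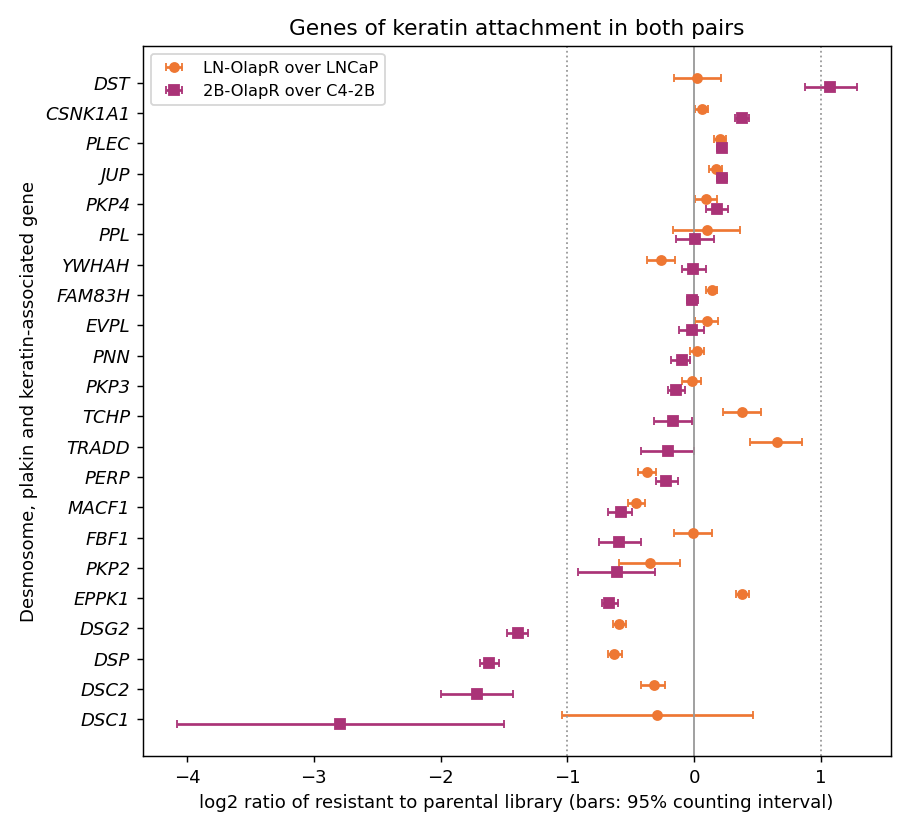
Log2 ratios of resistant to parental library (x axis) for the 22 desmosome, plakin and keratin-associated genes above the minimum level in both pairs, as circles for the LN pair and squares for the 2B pair, with 95% counting intervals; dotted lines mark 2-fold. DSC1, DSC2, DSP and DSG2 lie beyond 2-fold lower and DST beyond 2-fold higher in the 2B pair, and no gene passes 2-fold in the LN pair.

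VIM, the intermediate filament of mesenchymal cells, was also lower in both resistant lines. It had 57.0 normalized CPM in LNCaP against 1.46 in LN-OlapR, and 41.8 in C4-2B against 9.41 in 2B-OlapR. Both parental lines were high, and the log2 ratios were -5.27 (-5.76 to -4.78) and -2.15 (-2.37 to -1.92). NES, the filament protein nestin, had 1.75 and 1.63 normalized CPM in LNCaP and LN-OlapR against 46.8 and 34.5 in C4-2B and 2B-OlapR. Of 16 intermediate filament genes other than keratins 12 were analysed here, and 8 were compared in the LN pair, with a median of 0.24 against 0.00 for all genes, 1 higher and 1 lower by 2-fold, beside 4.64% and 4.83% of all genes. Of 9 compared in the 2B pair, 1 was higher and 2 were lower, beside 4.42% and 5.65% of all genes, and the median was 0.03.

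Few basal genes were high enough to compare. Of 36 basal genes, keratins included, 24 were analysed here and 7 of these were under 1 normalized CPM in every library. In the LN pair 1 of 10 compared was 2-fold higher and 1 lower, beside 4.64% and 4.83% of all genes. The median log2 ratio was -0.16 against 0.00, but 0.54 with a minimum of 0.1 normalized CPM, so its direction depended on the minimum. In the 2B pair 1 of 13 was higher and 1 lower, beside 4.42% and 5.65% of all genes, with a median of -0.22. With counts this small, the list is described by its genes. CDH3, or P-cadherin, a cadherin of basal cells, had 1 count in LNCaP against 2 in LN-OlapR, and 408 in C4-2B against 396 in 2B-OlapR, a log2 ratio of 8.48 (6.17 to 10.8) for C4-2B over LNCaP. Like KRT19, it separated the C4-2B lines from the LNCaP lines. ITGB4, the integrin subunit of hemidesmosomes, had 2.46 normalized CPM in LNCaP against 0.686 in LN-OlapR, and 3.22 in C4-2B against 6.03 in 2B-OlapR.

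Luminal genes were taken from a list without keratins. In the LN pair 5 of 30 compared were 2-fold higher and 2 lower, beside 4.64% and 4.83% of all genes, with a median of 0.09. In the 2B pair 2 of 31 were higher and 3 lower, beside 4.42% and 5.65% of all genes, with a median of -0.08. The median over all genes was 0.00 in both pairs. CD24, a surface protein of luminal cells, had 27.5 normalized CPM in LNCaP against 1.29 in LN-OlapR, and 5.13 in C4-2B against 0.676 in 2B-OlapR. CD24 was lower in both resistant lines, with log2 ratios of -4.39 (-4.92 to -3.87) and -2.88 (-3.67 to -2.09).

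Of the p53 family and its regulators, to which TP63 belongs, 8 of 9 genes were analysed here and 0 were 2-fold different in either pair. Over all genes, 4.64% passed 2-fold upward and 4.83% downward for LN-OlapR over LNCaP. For 2B-OlapR over C4-2B these shares were 4.42% and 5.65%. With shares this small, a count of 0 among 8 genes does not set the list apart. Its medians were 0.04 in the LN pair and -0.27 in the 2B pair against 0.00 for all genes. TP73, the closest relative of TP63, had 7.89 normalized CPM in LNCaP against 9.90 in LN-OlapR, and 5.28 in C4-2B against 5.45 in 2B-OlapR. It was chosen after its values were seen.

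Markers of other cell types were low. Of 12 fibroblast markers 6 were analysed here, and they summed to 21.7 normalized CPM in LNCaP against 19.8 in LN-OlapR, and 19.3 in C4-2B against 9.94 in 2B-OlapR, with FAP at 0 counts in every line except 2B-OlapR. For 2 of 7 leukocyte markers the sums ran from 0.670 to 5.36, and for 2 of 6 endothelial markers from 3.48 to 13.2, highest in C4-2B. For 4 of 7 urothelial markers they ran from 5.38 to 12.65, and for 3 of 9 neuroendocrine markers from 7.14 to 16.7, highest in LNCaP for both. No other marker analysed from these lists was at 0 in any library, and PTPRC and PECAM1, which define leukocytes and endothelium, were not analysed here. The part of such cells in the keratin levels was not tested.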

How the data were processed

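Stranded mRNA libraries were made from 4 cell lines. The authors deposited estimated counts per gene, not scaled between libraries, of which 46.2% are not whole numbers. STAR and Partek are named in the submitters' processing notes with the builds GRCh38 and hg38. The counting tool, its strand setting, the annotation and the versions are not given in the sources used here. Each listed gene sums to at least 10 over the 4 libraries.

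The design had been written for estimated counts, which were rounded to whole numbers. TMM factors came from edgeR 4.0.16 in R 4.3.3, and ratios, Wilson intervals and counting intervals from numpy 2.4.6 and pandas 2.3.3 in Python 3.11.15. No model was fitted, as there is 1 library per line. The ratio and its interval were run on counts simulated with counting error only. That simulation cannot address variation between cultures or libraries. Lengths and positions came from GENCODE release 29 on GRCh38, matched by Ensembl identifier, with the length of the principal coding transcript. For a symbol listed more than once, the first entry was used.

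Genes were named by rule: all members, their pseudogenes, list genes at least 2-fold different in a comparison (up to the 5 highest and 5 lowest of a list), markers of the labelled cell type, and the 3 genes nearest in profile to members ranging over 2-fold. Some genes that this rule names are not reported here. The lists cover keratins, keratin partners, other intermediate filaments, basal and luminal prostate, the p53 family, and fibroblast, leukocyte, endothelial, urothelial and neuroendocrine markers. Members and lists were chosen with earlier results of these data known. Alternatives were scaling by total counts, DESeq2 1.42.0 size factors or upper quartile, a pseudocount of 2, minimum levels of 0.1 and 10, added pseudogene counts and coding length. Adding KRT10-AS1 to KRT10, and pseudogenes to the KRT8 to KRT18 ratio, was chosen after seeing the data.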

Additional observations from a re-analysis of the deposited data

Results flagged for a closer look

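Among the 6 keratins and the listed keratin partners, filament, basal and luminal genes that passed the minimum level in both pairs, 6 had log2 ratios of opposite sign in the LN and 2B pairs and met the conditions set. For genes other than keratins, these were that both counting intervals excluded 0 and that at least 1 ratio was 2-fold or more. With 1 library per line, these differences were not tested. KRT19 had 0.25 in the LN pair, with an interval that includes 0, and -1.33 in the 2B pair. ITGB4 had -1.81 in the LN pair and 0.90 in the 2B pair. KLK2 and KLK3, which encode prostate kallikreins, had 2.56 and 5.66 in the LN pair and -0.08 and -0.37 in the 2B pair. The KLK2 difference in the 2B pair was small (-0.14 to -0.03), at 233.0 normalized CPM in 2B-OlapR against 246.9 in C4-2B. SLC45A3, a luminal membrane transporter, had 0.35 and -2.99. AZGP1, a secreted glycoprotein of luminal cells, had 5.30 and -0.92.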

How the results depend on the processing

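Among KRT8, KRT18, KRT19, KRT80 and KRT10, no log2 ratio whose counting interval excluded 0 changed sign under the alternatives run. The other keratins were not recomputed, and with a minimum of 10 normalized CPM KRT80 had no value and KRT19 none in the LN pair or between the resistant lines. Total counts moved KRT8 to -0.47 and KRT18 to -0.26 in the LN pair and KRT18 to 0.18 for 2B-OlapR over LN-OlapR, for which upper quartile scaling gave 0.17. Adding pseudogene counts left all 8 ratios of KRT8 and KRT18 within their intervals. Coding length gave a type II to type I ratio of 0.691 in LNCaP against 0.593 in LN-OlapR, and 0.653 in C4-2B against 0.538 in 2B-OlapR. Counts of genes depended on the minimum level. With 0.1 normalized CPM, 2011 genes were 2-fold higher and 1983 lower in the LN pair, 1956 and 2220 in the 2B pair, 2809 and 2495 for C4-2B over LNCaP, and 3019 and 2965 for 2B-OlapR over LN-OlapR. With 10, these were 196 and 192, 163 and 256, 424 and 348, and 482 and 558. With 10, 1 keratin was 2-fold different in the 2B pair, 1 in C4-2B over LNCaP and 1 in 2B-OlapR over LN-OlapR. With 0.1, where KRT7 was compared too, these were 3, 2 and 4. The keratins compared thus changed with the minimum, and shares over all genes were not computed at these minimum levels. The median of the keratin partners in the LN pair was -0.06 with total counts in place of 0.02. For other intermediate filaments in the 2B pair, the median was -0.01 with total counts and 0.19 with 0.1 normalized CPM. For basal genes in the LN pair it was 0.54 with 0.1. No replicate could be left out, as each line has 1 library. The labels give no replicate numbers to pair, and a fit of both resistant against both parental lines with lineage as a block was not run. KRT7, and KRT80 in LNCaP, are limited by depth.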

Other observations

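NEFL, a neurofilament chain, had 1.04 normalized CPM in LNCaP against 1.93 in LN-OlapR, and 0.831 in C4-2B against 6.08 in 2B-OlapR, with log2 ratios of 0.88 (0.20 to 1.56) in the LN pair and 2.84 (2.11 to 3.56) in the 2B pair. PRPH, or peripherin, had 0.484 in LNCaP and between 2.74 and 3.96 in the other lines, with a log2 ratio of 2.46 (1.61 to 3.31) in the LN pair and -0.23 (-0.69 to 0.23) in the 2B pair. OVOL1, an epithelial transcription factor chosen after its values were seen, had 5.21, 9.82, 13.7 and 22.7 normalized CPM in LNCaP, LN-OlapR, C4-2B and 2B-OlapR, the same order of lines as for KRT80.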
